A study of Homo sapiens with 6 samples.

Results

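The genes described here are 41 genes of homologous recombination, the Fanconi anaemia pathway and the DNA damage checkpoint, among them BRCA1, BRCA2, ATM, ATR and most of the FANC genes. They were taken by symbol from a table of 28307 genes and all 41 were present. Of the 12938 genes with enough counts to be tested, 40 belonged to the set. The remaining one, ATRIP, the partner protein of ATR, had too few counts for the main test. It had 9, 20 and 10 counts in the siNPM1c libraries and 10, 8 and 9 in the siControl libraries. In an alternative fit on protein-coding genes alone ATRIP passed the filter and was called higher. It was also tested with no filter beyond 1 count, and without siNPM1c replicate 1 or 3 or siControl replicate 2 or 3. In none of those fits was ATRIP called higher. The cells were OCI-AML3, an established acute myeloid leukaemia line. It is known for carrying a mutant NPM1 allele whose protein, NPM1c, is displaced to the cytoplasm. The labels give the genotype of every sample as WT and name no further alteration. The 3 siNPM1c libraries came from cells transfected with an siRNA against NPM1c and the 3 siControl libraries from cells transfected with a control siRNA, each at 10 nM by lipofection (Lipofectamine RNAiMAX). Total RNA was taken on day 3. All samples come from 1 line and carry 1 batch label, and the labels do not say that the replicates were separate cultures, so the p-values rest on the spread between these 6 libraries alone, which could be technical.

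A double-strand break is recognised by the MRE11-RAD50-NBN complex, which activates the kinase ATM, while single-stranded DNA at resected ends or stalled forks activates ATR through ATRIP and TOPBP1. BRCA1, PALB2 and BRCA2 then prepare the resected DNA for strand exchange, helped by cofactors such as RAD51C and XRCC3, and the BLM-TOP3A-RMI complex resolves joined DNA molecules without crossing over. The Fanconi pathway opens DNA crosslinks. A core complex with the E2 enzyme UBE2T attaches ubiquitin to FANCD2 and FANCI, which bring in the scaffold protein SLX4 and nucleases such as ERCC4. In dividing cells many of these genes are most strongly transcribed in S and G2 phase.

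Library totals were 15338450, 25190122 and 17352206 counts in siNPM1c and 15075235, 23828944 and 15846060 counts in siControl. Ribosomal RNA genes took 69.4 to 71.1% of the counts in siNPM1c and 63.0 to 64.5% in siControl. Protein-coding genes took 21.3 to 22.3% in siNPM1c against 28.1 to 29% in siControl, so that 3414688 to 6695652 counts per library bore on protein-coding genes. NPM1 (Entrez gene 4869, chr5:171387116-171410900) had 293, 500 and 350 counts in the siNPM1c libraries and 922, 1366 and 922 in the siControl libraries. In CPM, NPM1 stood at 22, 24 and 23.6 in siNPM1c, against 51.3, 49.5 and 49.6 in siControl (CPM is the count over the library size in units of 1000000, scaled by edgeR's TMM method). It was lower in all 3 siNPM1c libraries (log2 fold change -1.10, SE 0.054, adjusted p = 5.82e-51), and the table does not separate the mutant from the normal allele. Single genes of the set had 8 to 1607 counts in a library, and together they held 0.143, 0.142 and 0.145% of the protein-coding counts in siNPM1c against 0.167, 0.169 and 0.174% in siControl. Each of the 3 siNPM1c shares lay below each of the 3 siControl shares.

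Of the 40 tested genes, 19 fell in siNPM1c, 2 rose (SLX4 and FANCE) and 19 were not called, by edgeR's quasi-likelihood test at an adjusted p under 0.05 over all genes tested. The share that fell was 47.5%, beside 21.4% of all genes tested, and the share that rose was 5%, beside 21.3%. The median log2 fold change (siNPM1c minus siControl) over the 40 was -0.23, with single genes between -1.13 and 0.46 and over all genes tested it was -0.012. The genes that fell took in NBN and RBBP8, of break sensing and end resection, and the kinase genes ATM and ATR. Both genes of the FANCD2-FANCI clamp and the helicase genes BLM and FANCM fell as well. By role, the share that fell ran from 25% of the 8 strand exchange cofactors to 100% of the 2 clamp genes. Relative to the mean of the siControl libraries, the median gene of the set stood at -0.23, -0.29 and -0.29 on the log2 scale in the siNPM1c libraries and at -0.028, 0.0075 and 0.028 in the siControl libraries. The groups did not overlap in this median. For 22 of the 40 the groups did not overlap in CPM, beside 49.2% of all genes tested. In bulk RNA, fewer cells in a cell cycle phase and less RNA per cell cannot be told apart. With library sizes alone in place of TMM the median of all genes moved to -0.48. Then 9253 genes tested fell (71.5%) and 505 rose (3.9%). Those sizes include the ribosomal RNA counts, 69.4 to 71.1% of each library in siNPM1c and 63.0 to 64.5% in siControl. Of the set, 37 then fell and none rose, with SLX4 at -0.0076 (not called, adjusted p = 0.926) and FANCE at -0.31. The set's median relative to that of all genes was -0.22 under either scaling. Leaving out 1 library left 13 to 18 genes of the set called lower and 1 to 4 called higher.

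**Figure D1:**
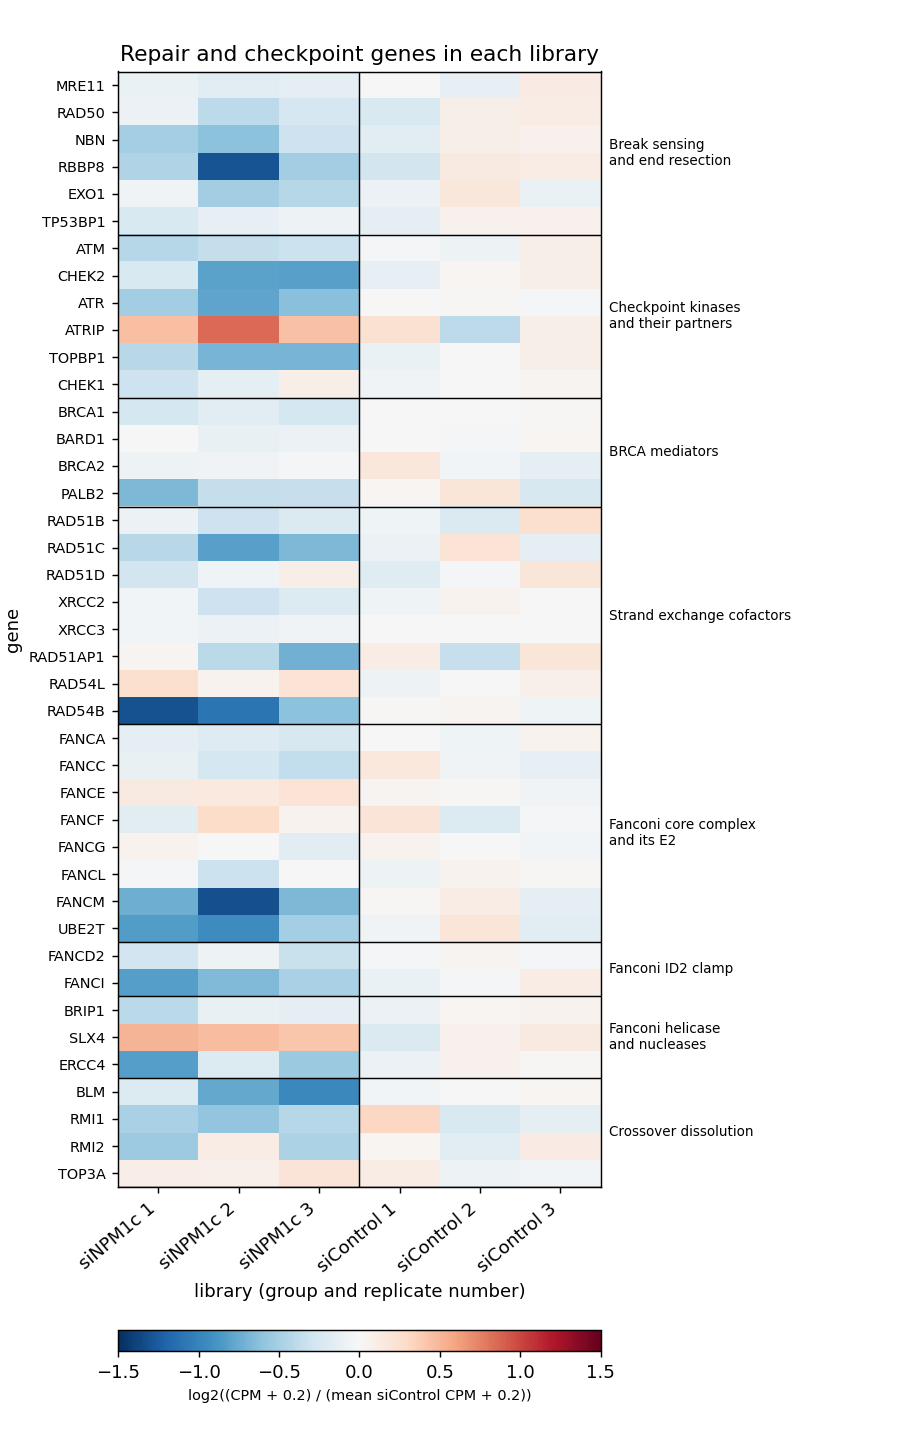
Each row is 1 of the 41 genes, grouped by role, and each column 1 library, with the 3 siNPM1c libraries left of the 3 siControl libraries; colour is the log2 ratio of the gene's CPM to the mean siControl CPM, with 0.2 CPM added to both and the scale ending at 1.5 in either direction. Blue prevails in the siNPM1c columns, darkest for RAD54B and FANCM, and RBBP8 is dark in siNPM1c replicate 2 alone. SLX4 is red in all 3 siNPM1c columns (under library sizes alone its log2 fold change was -0.0076). ATRIP, which was not in the main test, rests on 8 to 20 counts.

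Promoters were read to show the sequences at which genes of the set start, because S and G2 phase transcription is known to run through E2F motifs and through the CHR motif, an element bound by repressor complexes at cell cycle genes. RefSeq promoters (GRCh38.p14, from 250 bases before to 50 after the start) were available for 37 of the 41 genes. An E2F motif (TTTCCCGC, TTTGGCGC, TTTGCCGC or TTTCGCGC, either strand) was found in 6 of them, or 16.2%, beside 5.43% of the 10195 promoters of tested genes and 3.33% of all 27305 promoters. By direction, 3 of 16 promoters of genes that fell held one, and so did 3 of 18 of genes not called. The CHR motif (TTTGAA, either strand) was found in 4 promoters of the set (10.8%, beside 9.79% for tested genes and 15.4% for all promoters). An ETS motif (CCGGAAGT, either strand) was found in 5 (13.5%, beside 8.86% and 4.44%) and the NF-Y motif (CCAAT, either strand) in 17 (45.9%, beside 36.6% and 35.7%). No motif is contained in another, and a match describes letters only. The 4 promoters below belong to the genes with the smallest adjusted p among those that fell and held an E2F or CHR motif, and the capitals mark that motif; each is written 5′ to 3′ on the strand of its gene.
ATM (chr11:108222817-108223116, plus strand): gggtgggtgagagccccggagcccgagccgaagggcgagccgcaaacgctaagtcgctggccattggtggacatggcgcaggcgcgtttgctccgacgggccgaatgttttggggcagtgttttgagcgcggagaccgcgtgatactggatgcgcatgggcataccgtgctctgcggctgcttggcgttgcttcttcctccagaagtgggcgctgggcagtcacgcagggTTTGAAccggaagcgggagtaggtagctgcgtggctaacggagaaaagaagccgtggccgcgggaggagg
TOPBP1 (chr3:133661892-133662191, minus strand): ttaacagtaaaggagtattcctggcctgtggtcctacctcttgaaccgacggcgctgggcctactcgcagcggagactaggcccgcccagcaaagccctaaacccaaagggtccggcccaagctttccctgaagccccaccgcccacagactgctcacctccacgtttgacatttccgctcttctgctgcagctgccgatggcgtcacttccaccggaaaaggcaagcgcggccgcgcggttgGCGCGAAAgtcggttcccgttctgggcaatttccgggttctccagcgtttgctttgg
UBE2T (chr1:202341887-202342186, minus strand): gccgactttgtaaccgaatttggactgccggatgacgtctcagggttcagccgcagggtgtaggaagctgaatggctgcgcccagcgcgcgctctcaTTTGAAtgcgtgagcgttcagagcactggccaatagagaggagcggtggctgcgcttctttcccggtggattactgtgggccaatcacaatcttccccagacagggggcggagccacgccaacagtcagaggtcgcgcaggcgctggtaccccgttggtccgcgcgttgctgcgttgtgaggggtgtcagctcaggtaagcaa
FANCA (chr16:89816598-89816897, minus strand): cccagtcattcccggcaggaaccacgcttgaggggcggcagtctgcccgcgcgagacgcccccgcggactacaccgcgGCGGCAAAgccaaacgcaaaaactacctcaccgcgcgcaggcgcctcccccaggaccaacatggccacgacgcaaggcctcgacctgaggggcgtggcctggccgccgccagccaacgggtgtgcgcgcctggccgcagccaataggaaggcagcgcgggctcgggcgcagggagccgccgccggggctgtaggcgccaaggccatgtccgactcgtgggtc
In the ATM promoter the CHR letters begin at base -20 from the start, and in that of UBE2T at -153. In the TOPBP1 promoter the E2F letters lie on the opposite strand, begin at -7 and reach the first transcribed base, and in the FANCA promoter they lie on the opposite strand and begin at -172.

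Among the 6 genes of break sensing and end resection, RBBP8, NBN and RAD50 fell, and MRE11, EXO1 and TP53BP1 were not called. RBBP8 (Entrez gene 5932, chr18:22914139-23026486), which encodes the resection factor CtIP, had 18, 14 and 19 counts in the siNPM1c libraries and 28, 59 and 39 in the siControl libraries. In CPM, RBBP8 stood at 1.35, 0.671 and 1.28 in siNPM1c, against 1.56, 2.14 and 2.1 in siControl. The siNPM1c values all lay below the siControl values, the lowest in siNPM1c replicate 2 (log2 fold change -0.89, SE 0.26, adjusted p = 0.00269). NBN, the NBS1 subunit that brings ATM to breaks, had 72, 105 and 93 counts in the siNPM1c libraries and 125, 229 and 152 in the siControl libraries. In CPM, NBN stood at 5.42, 5.03 and 6.28 in siNPM1c, against 6.95, 8.3 and 8.18 in siControl, again without overlap (log2 fold change -0.51, SE 0.12, adjusted p = 0.000201). RAD50, the tethering subunit of the same complex, averaged 7.43 ± 0.81 CPM in siNPM1c and 8.82 ± 1.14 CPM in siControl (SD, n = 3 each), and its groups overlapped (log2 fold change -0.28, SE 0.11, adjusted p = 0.031). MRE11 (Entrez gene 4361, chr11:94415570-94512412), the nuclease of the complex, had 55, 83 and 60 counts in the siNPM1c libraries and 80, 112 and 90 in the siControl libraries. In CPM, MRE11 stood at 4.14, 3.98 and 4.05 in siNPM1c, against 4.45, 4.06 and 4.85 in siControl. These ranges overlapped (log2 fold change -0.12, SE 0.15, adjusted p = 0.536). TP53BP1 (Entrez gene 7158, chr15:43403061-43510640), which shields ends from resection, had 265, 447 and 329 counts in the siNPM1c libraries and 378, 677 and 455 in the siControl libraries. In CPM, TP53BP1 stood at 19.9, 21.4 and 22.2 in siNPM1c, against 21, 24.5 and 24.5 in siControl, with the lowest siControl value inside the siNPM1c range (log2 fold change -0.14, SE 0.067, adjusted p = 0.0699). EXO1, the long-range resection nuclease, stood at a log2 fold change of -0.39 (SE 0.19), with an adjusted p of 0.0905. With a correction for each library's trend with the GC content of transcripts, the calls of NBN (-0.23, adjusted p = 0.112) and RAD50 (-0.046, adjusted p = 0.772) were lost and MRE11 stood at a log2 fold change of 0.086. The RBBP8 call was lost without siNPM1c replicate 2 (log2 fold change -0.56, adjusted p = 0.12). That of RAD50 was lost in DESeq2 (adjusted p = 0.188) and without siNPM1c replicate 2 (0.277) or 3 (0.0641) or siControl replicate 2 (0.171) or 3 (0.119). TP53BP1 was called lower under a filter of 5 CPM (adjusted p = 0.0379), under library sizes alone (3.33e-17) and without siControl replicate 1 (adjusted p = 0.0129) and EXO1 without siNPM1c replicate 1 (0.0427).

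Of the 5 tested checkpoint genes, ATM, ATR, CHEK2 and TOPBP1 fell, and CHEK1 was not called. ATM (Entrez gene 472, chr11:108223067-108369102), the kinase that responds to double-strand breaks, had 607, 1001 and 727 counts in the siNPM1c libraries and 1094, 1607 and 1210 in the siControl libraries. In CPM, ATM stood at 45.7, 48 and 49.1 in siNPM1c, against 60.8, 58.2 and 65.2 in siControl. All 3 siNPM1c values lay below the siControl range (log2 fold change -0.36, SE 0.044, adjusted p = 3.47e-13), and this gene gave the most counts of the set. ATR (Entrez gene 545, chr3:142449235-142578733), the kinase of replication stress, had 60, 77 and 62 counts in the siNPM1c libraries and 118, 183 and 120 in the siControl libraries. In CPM, ATR stood at 4.51, 3.69 and 4.19 in siNPM1c, against 6.56, 6.63 and 6.46 in siControl. Its siControl libraries lay close together and the siNPM1c libraries well below them (log2 fold change -0.69, SE 0.14, adjusted p = 6.5e-06). TOPBP1 (Entrez gene 11073, chr3:133600238-133661941), which switches ATR on and whose promoter is printed above, had 143, 184 and 131 counts in the siNPM1c libraries and 242, 398 and 285 in the siControl libraries. In CPM, TOPBP1 stood at 10.8, 8.81 and 8.85 in siNPM1c, against 13.5, 14.4 and 15.4 in siControl, with no overlap (log2 fold change -0.62, SE 0.091, adjusted p = 1.11e-09). The effector kinases downstream differed in their calls. CHEK2 (Entrez gene 11200, chr22:28687742-28741834), the effector of ATM, had 42, 43 and 30 counts in the siNPM1c libraries and 61, 105 and 74 in the siControl libraries. In CPM, CHEK2 stood at 3.16, 2.06 and 2.03 in siNPM1c, against 3.39, 3.8 and 3.98 in siControl; siNPM1c replicate 1 came close to the siControl range and the other siNPM1c libraries lay far below (log2 fold change -0.66, SE 0.18, adjusted p = 0.00124). CHEK1 (Entrez gene 1111, chr11:125625136-125681124), the effector of ATR, had 59, 105 and 87 counts in the siNPM1c libraries and 96, 153 and 106 in the siControl libraries. In CPM, CHEK1 stood at 4.44, 5.03 and 5.88 in siNPM1c, against 5.34, 5.54 and 5.71 in siControl. Its highest value was in siNPM1c replicate 3, so the groups overlapped (log2 fold change -0.11, SE 0.13, adjusted p = 0.536). All 4 calls in this role held under every alternative that tested the gene. With the GC correction ATM stood at a log2 fold change of -0.12 (adjusted p = 0.0174), ATR at -0.43 (adjusted p = 0.0062) and CHEK1 at 0.021.

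**Figure D2:**
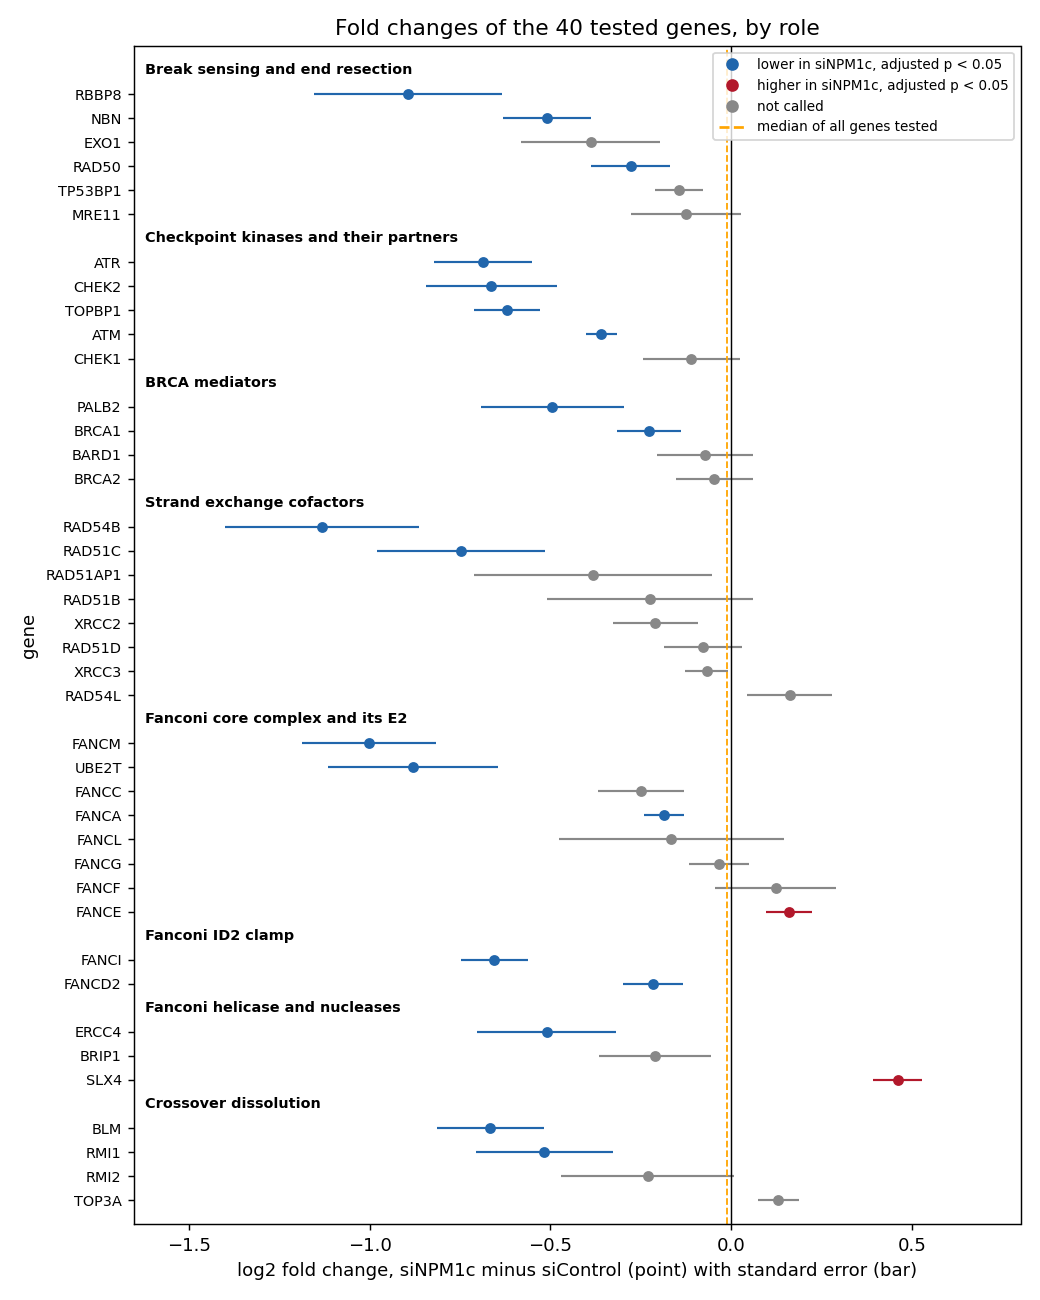
Points are the log2 fold changes (siNPM1c minus siControl) of the 40 tested genes by role, bars 1 standard error, and the dashed line the median of all genes tested (-0.012). The 35 genes left of 0 run down to RAD54B at -1.13, and of the 5 to the right only SLX4 (0.46) and FANCE (0.16) were called, both below 0 when libraries were scaled by their sizes alone.

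Of the 4 BRCA mediators, BRCA1 and PALB2 fell, and BRCA2 and BARD1 were not called. BRCA1 (Entrez gene 672, chr17:43044295-43170327), the ubiquitin ligase subunit that promotes resection and PALB2 recruitment, had 144, 240 and 160 counts in the siNPM1c libraries and 232, 356 and 245 in the siControl libraries. In CPM, BRCA1 stood at 10.8, 11.5 and 10.8 in siNPM1c, against 12.9, 12.9 and 13.2 in siControl. The siControl values lay close together and above all siNPM1c values (log2 fold change -0.23, SE 0.089, adjusted p = 0.0291). PALB2 (Entrez gene 79728, chr16:23603165-23641310), the bridge between BRCA1 and BRCA2, had 23, 46 and 33 counts in the siNPM1c libraries and 53, 91 and 45 in the siControl libraries. In CPM, PALB2 stood at 1.73, 2.2 and 2.23 in siNPM1c, against 2.95, 3.3 and 2.42 in siControl, also without overlap (log2 fold change -0.49, SE 0.20, adjusted p = 0.0321). BRCA2 (Entrez gene 675, chr13:32315077-32400268), a mediator of strand exchange, had 108, 172 and 124 counts in the siNPM1c libraries and 173, 230 and 143 in the siControl libraries. In CPM, BRCA2 stood at 8.12, 8.24 and 8.38 in siNPM1c, against 9.62, 8.33 and 7.7 in siControl. The siNPM1c values lay inside the siControl range (log2 fold change -0.046, SE 0.11, adjusted p = 0.756). BARD1, the partner of BRCA1, stood at a log2 fold change of -0.072 (SE 0.13). With the GC correction BRCA1 (log2 fold change -0.073, adjusted p = 0.543) and PALB2 (-0.35, adjusted p = 0.155) were no longer called. BRCA2 then stood at a log2 fold change of 0.21 (adjusted p = 0.112) and BARD1 at 0.076. In DESeq2 the adjusted p of BRCA1 was 0.131 and that of PALB2 0.152. Left-out libraries ended the BRCA1 call (siNPM1c replicate 1, adjusted p = 0.0886, or 3, 0.0946, siControl replicate 2, 0.0575, or 3, 0.0687). They also ended the PALB2 call (siNPM1c replicate 1, adjusted p = 0.138, or 2, 0.0573, siControl replicate 1, 0.0537, or 2, 0.208). Without siControl replicate 1 BRCA2 stood at a log2 fold change of 0.033.

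Among the 8 cofactors of strand exchange, RAD54B and RAD51C fell and the other 6 were not called. The share that fell was 25%, near the 21.4% of all genes tested. RAD54B (Entrez gene 25788), a DNA translocase of homologous recombination, had 9, 17 and 18 counts in the siNPM1c libraries and 36, 56 and 35 in the siControl libraries. In CPM, RAD54B stood at 0.677, 0.814 and 1.22 in siNPM1c, against 2, 2.03 and 1.89 in siControl. Every siNPM1c library lay below every siControl library, a 2.19-fold higher fitted level in siControl and the largest decrease of the set (log2 fold change -1.13, SE 0.27, adjusted p = 0.000175), at 9 to 56 counts a library. RAD51C (Entrez gene 5889, chr17:58692573-58735611), a subunit of both complexes of this family, had 22, 25 and 20 counts in the siNPM1c libraries and 38, 73 and 38 in the siControl libraries. In CPM, RAD51C stood at 1.66, 1.2 and 1.35 in siNPM1c, against 2.11, 2.64 and 2.05 in siControl, likewise separate (log2 fold change -0.75, SE 0.23, adjusted p = 0.005). XRCC3, its partner in the smaller complex, averaged 27.4 ± 0.409 CPM in siNPM1c and 28.7 ± 0.157 CPM in siControl (SD, n = 3 each); the groups did not overlap, yet the difference was small and not called (log2 fold change -0.067, SE 0.059, adjusted p = 0.37). RAD51B stood at a log2 fold change of -0.23 (SE 0.28), RAD51D at -0.078 (SE 0.11) and XRCC2 at -0.21 (SE 0.12), which with RAD51C form the larger complex. RAD51AP1, a stimulator of strand exchange, stood at a log2 fold change of -0.38 (SE 0.33), and RAD54L, the main RAD54 translocase, at 0.16 (SE 0.12), the one value above 0 in this role (-0.31 under library sizes alone). The RAD51C call was lost in DESeq2 (adjusted p = 0.057), without siNPM1c replicate 2 (0.0605) and without siControl replicate 2 (0.0683). With the GC correction XRCC3 was called lower (log2 fold change -0.15, adjusted p = 0.0264). RAD51D stood at 0.0075 without siNPM1c replicate 1 and at 0.0084 without siControl replicate 3.

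The Fanconi core complex moved unevenly: FANCM, UBE2T and FANCA fell, FANCE rose (but stood at -0.31 under library sizes alone), and FANCC, FANCF, FANCG and FANCL were not called. FANCM (Entrez gene 57697, chr14:45135930-45200890), the translocase that anchors the complex to DNA, had 31, 31 and 36 counts in the siNPM1c libraries and 73, 120 and 67 in the siControl libraries. In CPM, FANCM stood at 2.33, 1.49 and 2.43 in siNPM1c, against 4.06, 4.35 and 3.61 in siControl. Its siNPM1c values were all well under its siControl values, the second largest decrease of the set (log2 fold change -1.0, SE 0.18, adjusted p = 1.11e-06). UBE2T (Entrez gene 29089, chr1:202331657-202341936), the E2 enzyme of the pathway, had 16, 23 and 23 counts in the siNPM1c libraries and 40, 73 and 38 in the siControl libraries. In CPM, UBE2T stood at 1.2, 1.1 and 1.55 in siNPM1c, against 2.22, 2.64 and 2.05 in siControl, without overlap (log2 fold change -0.88, SE 0.24, adjusted p = 0.00102). FANCA (Entrez gene 2175, chr16:89737549-89816647), a scaffold subunit, had 410, 617 and 425 counts in the siNPM1c libraries and 614, 894 and 652 in the siControl libraries. In CPM, FANCA stood at 30.8, 29.6 and 28.7 in siNPM1c, against 34.1, 32.4 and 35.1 in siControl. The step was small but clear of the spread (log2 fold change -0.19, SE 0.056, adjusted p = 0.00375). FANCE (Entrez gene 2178, chr6:35452338-35467102), which contacts FANCD2, had 335, 529 and 391 counts in the siNPM1c libraries and 425, 638 and 409 in the siControl libraries. In CPM, FANCE stood at 25.2, 25.3 and 26.4 in siNPM1c, against 23.6, 23.1 and 22 in siControl; all 3 siNPM1c values were above the siControl values (log2 fold change 0.16, SE 0.063, adjusted p = 0.0309). FANCL, the E3 ligase subunit, stood at a log2 fold change of -0.17 (SE 0.31) on 13 to 29 counts a library, FANCC at -0.25 (SE 0.12), FANCG at -0.034 (SE 0.083) and FANCF at 0.12 (SE 0.17). The FANCE call was lost with the GC correction (adjusted p = 0.281), with no filter beyond 1 count (0.111), in DESeq2 (0.112), and without siNPM1c replicate 2 (0.0502) or 3 (0.1) or siControl replicate 2 (0.0552) or 3 (0.107). FANCF stood at -0.35 under library sizes alone and at -0.015 without siNPM1c replicate 2, and FANCG at 0.023 without siNPM1c replicate 3.

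Both genes of the clamp that the core complex modifies fell. FANCI (Entrez gene 55215, chr15:89243979-89317259) had 105, 185 and 148 counts in the siNPM1c libraries and 237, 382 and 284 in the siControl libraries. In CPM, FANCI stood at 7.9, 8.86 and 10.0 in siNPM1c, against 13.2, 13.8 and 15.3 in siControl. No siNPM1c value reached the siControl range (log2 fold change -0.66, SE 0.093, adjusted p = 2.76e-10). FANCD2 (Entrez gene 2177, chr3:10026437-10101932) had 166, 303 and 179 counts in the siNPM1c libraries and 271, 435 and 278 in the siControl libraries. In CPM, FANCD2 stood at 12.5, 14.5 and 12.1 in siNPM1c, against 15.1, 15.8 and 15 in siControl; siNPM1c replicate 2 came nearest to the siControl range (log2 fold change -0.22, SE 0.083, adjusted p = 0.0258). The FANCI call held under all 16 alternatives, while that of FANCD2 was lost with the GC correction (log2 fold change -0.11, adjusted p = 0.296), in DESeq2 (0.129), and without siNPM1c replicate 1 (0.11) or 3 (0.168) or siControl replicate 2 (0.109).

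In the nuclease step SLX4 rose (but stood at -0.0076 under library sizes alone) and ERCC4 fell, and the helicase gene BRIP1 was not called. SLX4 (Entrez gene 84464, chr16:3581181-3611606), the scaffold that holds several nucleases, had 341, 520 and 356 counts in the siNPM1c libraries and 277, 518 and 366 in the siControl libraries. In CPM, SLX4 stood at 25.7, 24.9 and 24 in siNPM1c, against 15.4, 18.8 and 19.7 in siControl. All 3 siNPM1c values exceeded the siControl values, a 1.38-fold higher level and the largest increase of the set (log2 fold change 0.46, SE 0.069, adjusted p = 1.89e-09). ERCC4, the XPF nuclease that SLX4 binds, averaged 2.11 ± 0.495 CPM in siNPM1c and 3.08 ± 0.171 CPM in siControl (SD, n = 3 each; log2 fold change -0.51, SE 0.19, adjusted p = 0.023). BRIP1, a helicase that binds BRCA1, stood at a log2 fold change of -0.21 (SE 0.16), with groups that did not overlap. The SLX4 call held in every alternative but library sizes alone. That of ERCC4 was lost with the GC correction (log2 fold change -0.34, adjusted p = 0.144), in DESeq2 (0.112), and without siNPM1c replicate 1 (0.149) or 3 (0.0755) or siControl replicate 2 (0.0796).

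Of the 4 genes of crossover dissolution, the helicase gene BLM and the adaptor gene RMI1 fell, while TOP3A and RMI2 were not called. BLM (Entrez gene 641, chr15:90717346-90816166) had 64, 67 and 41 counts in the siNPM1c libraries and 98, 155 and 106 in the siControl libraries. In CPM, BLM stood at 4.81, 3.21 and 2.77 in siNPM1c, against 5.45, 5.62 and 5.71 in siControl. The siNPM1c libraries were spread widely and all lay below the tight siControl group (log2 fold change -0.67, SE 0.15, adjusted p = 7.17e-05). RMI1 averaged 2.31 ± 0.14 CPM in siNPM1c and 3.34 ± 0.728 CPM in siControl (SD, n = 3 each; log2 fold change -0.52, SE 0.19, adjusted p = 0.0185). TOP3A, the topoisomerase of the complex, averaged 32.2 ± 1.37 CPM in siNPM1c and 29.5 ± 2.02 CPM in siControl (SD, n = 3 each), with overlapping groups (log2 fold change 0.13, SE 0.057, adjusted p = 0.0536), and RMI2 stood at a log2 fold change of -0.23 (SE 0.24). The RMI1 call was lost with the GC correction (log2 fold change -0.27, adjusted p = 0.265), in DESeq2 (0.1), without siNPM1c replicate 2 (0.101) and without siControl replicate 1 (0.19). TOP3A was called higher among protein-coding genes alone (adjusted p = 0.0306), under the size factors of DESeq2 (0.0434), without siNPM1c replicate 2 (0.0447) and without siControl replicate 1 (0.0124). It stood at -0.34 under library sizes alone.

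Partners in one complex can be compared within a library, where the ratio of their counts does not depend on how libraries are scaled. The ratio does not remove a library's trend with the GC content of transcripts. BLM (40.04% GC) and RMI1 (38.33%) were set against TOP3A (54.21%), SLX4 (53.16%) against ERCC4 (42.04%) and RAD51C (42.91%) against XRCC3 (60.64%). FANCI (43.39%) and FANCD2 (44.61%) lay closer together, as did UBE2T (43.74%) and FANCL (41.84%). The part of GC content in the ratios was not tested. The 19 pairs were chosen after the values of their genes had been seen, so the ratios are a description, and with 3 libraries against 3 an exact permutation test could not give a p below 0.1. BLM counts per TOP3A count were 0.152, 0.103 and 0.082 in siNPM1c, against 0.171, 0.201 and 0.198 in siControl. RMI1 counts per TOP3A count were 0.0736, 0.0691 and 0.072 in siNPM1c, against 0.131, 0.101 and 0.105 in siControl. BLM and RMI1 were thus scarcer beside TOP3A in every siNPM1c library than in any siControl library. RMI2, another partner, was not set against TOP3A. SLX4 gave 15.5, 9.46 and 11.9 counts per ERCC4 count in siNPM1c, against 5.33, 5.82 and 6.31 in siControl. Within the clamp, FANCI counts per FANCD2 count averaged 0.690 ± 0.119 in siNPM1c and 0.925 ± 0.0839 in siControl (SD, n = 3 each). UBE2T counts per FANCL count averaged 1.4 ± 0.155 in siNPM1c and 2.29 ± 0.264 in siControl (SD, n = 3 each), and RAD51C counts per XRCC3 count 0.0510 ± 0.0078 in siNPM1c and 0.0791 ± 0.0110 in siControl. The paired mediators PALB2 and BRCA2 stood at 0.249 ± 0.0311 in siNPM1c and 0.339 ± 0.0493 in siControl, and CHEK1 to ATR at 1.25 ± 0.232 in siNPM1c and 0.844 ± 0.0356 in siControl. Groups overlapped for TOPBP1 to ATR, with 2.38, 2.39 and 2.11 in siNPM1c and 2.05, 2.18 and 2.38 in siControl, for CHEK2 to ATM, for RAD50 to MRE11, for RMI2 to RMI1, for RAD51C to RAD51B and for XRCC2 to RAD51D.

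**Figure D3:**
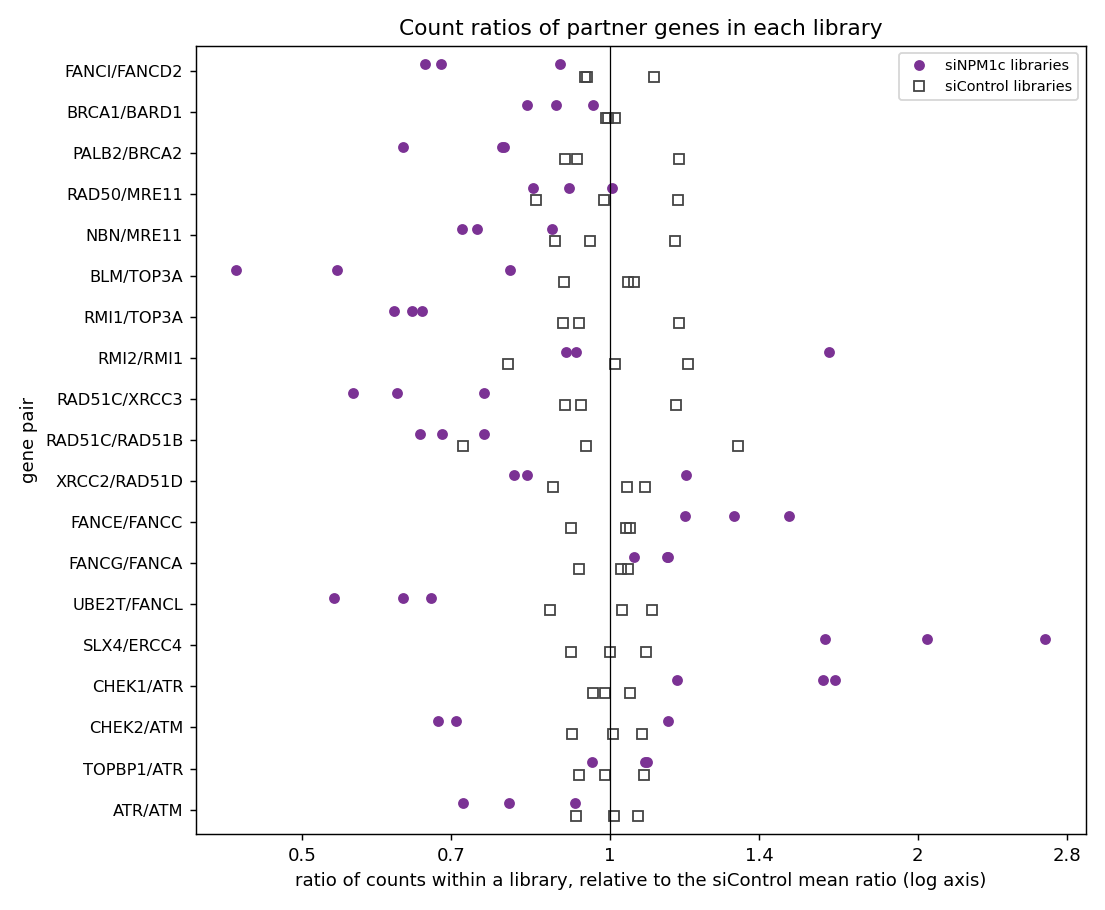
For each of 19 pairs of partner genes, the ratio of their counts in each library is drawn on a log axis relative to the mean siControl ratio; filled circles are the 3 siNPM1c libraries and open squares the 3 siControl libraries. SLX4 to ERCC4 lies furthest right of the siControl squares and BLM to TOP3A furthest left, while TOPBP1 to ATR mixes the groups.

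Levels differed widely within the set when divided by merged exon length (CPM per kb, GENCODE 29). In siNPM1c the highest were FANCE at 10.0, XRCC3 at 8.57 and TOP3A at 7.83 CPM per kb, and in siControl these were at 8.98, 8.95 and 7.17 CPM per kb. ATM, which gave the most counts, stood at 2.6 CPM per kb in siNPM1c and 3.36 in siControl, over 18299 bases of merged exons. The lowest of the tested genes were RAD54B at 0.198, RAD51B at 0.258 and ERCC4 at 0.273 CPM per kb in siNPM1c, against 0.432, 0.304 and 0.399 in siControl. The exon lengths include stretches shared with other genes (63.3% for RAD54B, 24.3% for ERCC4 and 45.3% for XRCC3). How reads there were counted is not given, so these levels per kb are uncertain. Of the genes with a siControl mean under 5 CPM, 9 of 17 fell, beside 15.2% of all genes tested at that level, and of those with 5 CPM or more, 10 of 23 fell, beside 26%.

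The genes of the set had transcripts of low GC content, with a median of 42.8% beside 50.9% over all genes tested. Those that fell had a median GC content of 40.8%, those not called 44.3%, and the 2 that rose 55.8%. Split at 45% GC, a value chosen after the data had been seen, 17 of 28 genes below it fell (60.7%) and none rose, with a median log2 fold change of -0.39, beside 34% lower and 10.3% higher among the 3567 tested genes in that range and their median of -0.19. At 45% or above, 2 of 12 genes fell (CHEK2 and FANCA) and 2 rose, with a median of -0.051, beside 17% lower and 25.5% higher among 8990 tested genes and their median of 0.039. Fold changes over all genes thus went with GC content in these libraries, and an alternative fit removed each library's smooth trend with GC. With that correction 13 genes of the set fell, 12 of the 19 and XRCC3, and 1 rose, beside 19.6% lower and 20.6% higher among the 12557 genes in that fit. The median of the set was then -0.12, beside -0.0046 for all of those genes. The part of GC content in the decreases was not tested beyond this.

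**Figure D4:**
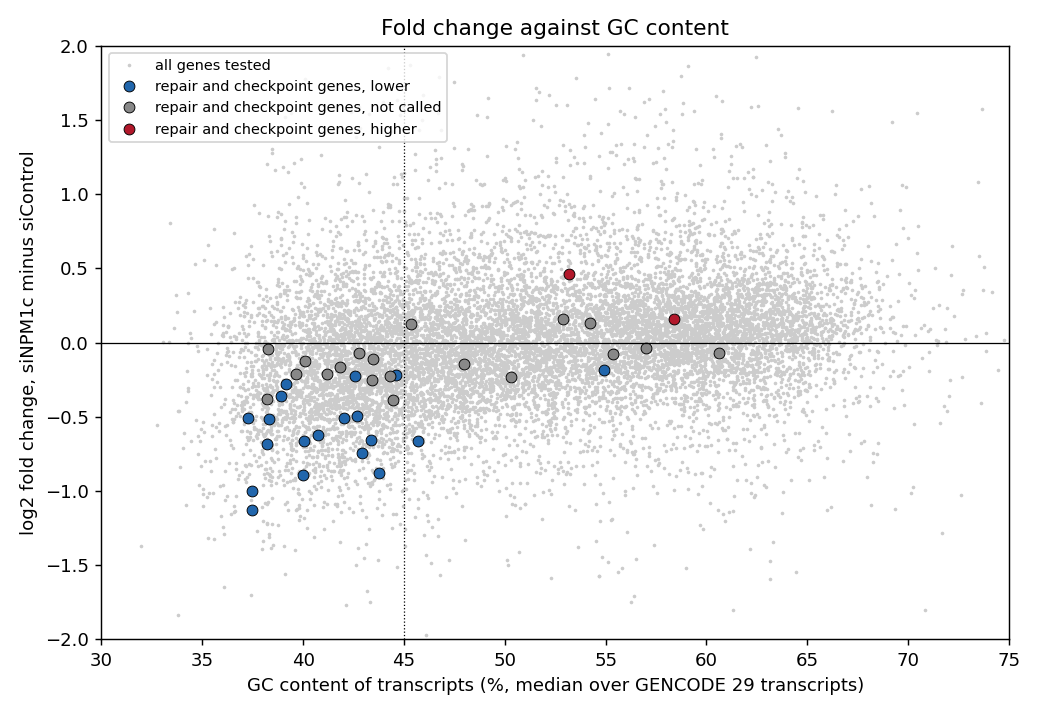
The log2 fold change (siNPM1c minus siControl) is plotted against the median GC content of a gene's transcripts, in grey for genes tested and in colour for the repair and checkpoint genes; the dotted line marks 45%, and genes beyond 2 in either direction or outside 30 to 75% GC are not drawn. Genes of the set that fell (blue) lie mostly left of the line, where the grey cloud is also lower, and the 2 that rose (red, both below 0 under library sizes alone) lie to the right.

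Several genes of the set share ground with other genes, and whether the counting used strand is not given in the sources used here, so reads from overlapping genes may not be told apart. Exons of 20 of the 41 genes overlap those of another annotated gene, 17 of them a gene on the opposite strand, and for 8 over 20% of the exon length is shared. RAD50 shares 90.6% with an unnamed protein-coding annotation, RAD54B 63.3% with FSBP (0 counts in every library) and ATRIP 29.6% with TREX1 (also 0 counts), all on the same strand. XRCC3 shares 45.3% with KLC1, FANCA 22.4% with ZNF276 and FANCL 26.6% with VRK2 on the opposite strand, and none of these 3 partners was called. TUBGCP4, which shares 28.9% of the exon length of TP53BP1 on the opposite strand, fell (log2 fold change -0.29, adjusted p = 0.0291), and so did LRRC41, which shares 18% with RAD54L (log2 fold change -0.47, adjusted p = 1.78e-16). CHEK2, BRCA1, FANCD2, RBBP8, MRE11 and RAD51AP1 have pseudogenes in RefSeq, so their counts are uncertain as far as reads fit more than one place. Starts within 1000 bases of a protein-coding gene running the other way were found for 13 of the 41 genes (31.7%), beside 11.8% of the 11613 protein-coding genes tested. Among these neighbours NPAT, a coactivator of histone genes that starts 158 bases from ATM, fell (log2 fold change -1.17, SE 0.22, adjusted p = 3.02e-06), with 1.23 CPM in siNPM1c and 2.86 CPM in siControl. DCTN5 beside PALB2 fell (log2 fold change -0.37, SE 0.065, adjusted p = 3.08e-07), HNRNPK beside RMI1 fell (-0.44), SMCR8 beside TOP3A rose (0.26), and NBR1 beside BRCA1 was not called (-0.043, SE 0.077). Also not called were DNASE1 beside SLX4 (0.030, SE 0.13), ZFYVE21 beside XRCC3 (-0.030, SE 0.13) and FERRY3 beside RAD51AP1 (-0.51, SE 0.24).

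Other repair and cell cycle lists were set beside these genes, each with the count of tested genes. Among all genes tested, 21.4% fell and 21.3% rose. The shares that fell were 16.7% (checkpoint and chromatin), 20% (nucleotide excision), 27.8% (base excision), 28.6% (end joining), 30.2% (further genes of the same pathways) and 42.9% (mismatch repair). Of 43 further genes of the same pathways, 13 fell and 4 rose (median -0.096). Among these were the single-strand binding subunit RPA1 (log2 fold change -0.63, SE 0.070, adjusted p = 1.14e-15), the nuclease FAN1 (log2 fold change -0.49, SE 0.088, adjusted p = 5.75e-07) and the fork protein MMS22L (log2 fold change -0.76, SE 0.15, adjusted p = 5.39e-06). Of 24 other checkpoint and chromatin genes, 4 fell and 3 rose (median -0.044); the CDK inhibitor CDKN1A rose, at a log2 fold change of 0.26 (SE 0.024), and MAD2L2, of the shieldin complex, at -0.41 (SE 0.080) and the break-marking histone H2AX at -0.24 (SE 0.049) fell. In end joining 4 of 14 fell and 2 rose (median -0.12); the kinase PRKDC at a log2 fold change of -0.58 (SE 0.025) and the Ku subunits XRCC5 at -0.48 (SE 0.050) and XRCC6 at -0.34 (SE 0.040) fell. In mismatch repair 3 of 7 fell and none rose (median -0.26), among them MLH3 at a log2 fold change of -0.61 (SE 0.15) and MSH6 at -0.42 (SE 0.086). In base excision repair 5 of 18 fell and 1 rose (median -0.13), with the glycosylases UNG at a log2 fold change of -0.52 (SE 0.12) and TDG at -0.45 (SE 0.13) lower and MPG at 0.34 (SE 0.10) higher. In nucleotide excision repair 3 of 15 fell and 4 rose (median 0.039), with RAD23B at a log2 fold change of 0.30 (SE 0.053) higher and DDB1 at -0.24 (SE 0.044) lower. The direction of these increases was relative to the median of all genes, which library sizes alone moved to -0.48.

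Lists of cell cycle genes were set beside them too, with 40% of the S phase genes and 80% of the G2/M genes lower, beside 21.4% of all genes tested. Of 30 S phase genes, 12 fell and none rose (median -0.18); PCNA, the replication clamp, stood at a log2 fold change of -0.92 (SE 0.13), the repressor E2F8 at -0.64 (SE 0.099) and the helicase subunit MCM6 at -0.41 (SE 0.070). Of 30 G2/M genes, 24 fell and none rose (median -0.44); the mitotic kinase CDK1 averaged 2.05 ± 0.381 CPM in siNPM1c and 5.24 ± 0.207 CPM in siControl (SD, n = 3 each; log2 fold change -1.33, SE 0.17, adjusted p = 4.75e-12), the topoisomerase TOP2A stood at a log2 fold change of -0.69 (SE 0.060) and the survivin gene BIRC5 at -0.51 (SE 0.055). The median GC content was 42.9% in the G2/M genes and 50.6% in the S phase genes, against 42.8% in the repair genes. The part of the cell cycle in the decreases of the repair genes was not tested.

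**Figure D5:**
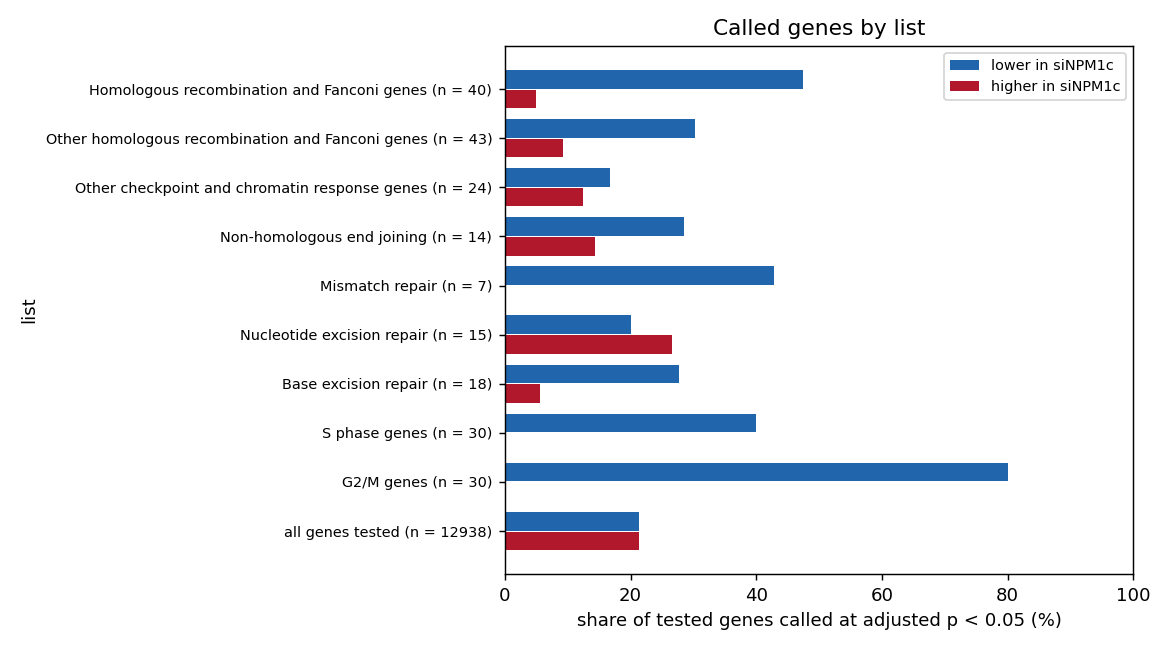
Bars give the share of tested genes called lower (blue) or higher (red) in siNPM1c at an adjusted p under 0.05, for the 40 genes, the other repair and cell cycle lists and all 12938 genes tested, with n beside each name. The G2/M list has the highest share lower (80%), the repair and checkpoint genes described here 47.5%, and all genes tested 21.4%; under library sizes alone most genes were lower.

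Markers of the labelled cell type were present in part, and some differed between the groups. KIT averaged 0.061 CPM in siNPM1c and 0.068 CPM in siControl, CEBPE 0.20 and 0.036 CPM, and CD34 0.66 and 0.56 CPM. These were too few counts to test. Of 14 myeloid blast markers, 11 were tested and 8 rose (72.7%, beside 21.3% of all genes tested). The summed level of the 14 was 959 to 973 CPM in siNPM1c and 514 to 522 CPM in siControl. That difference came mostly through the lysozyme gene LYZ (log2 fold change 2.33, SE 0.026, adjusted p = 1.16e-172). CD33 averaged 8.54 ± 0.153 CPM in siNPM1c and 9.04 ± 0.555 CPM in siControl (SD, n = 3 each) and was not called. No T and NK cell marker was tested, with sums of 0.978 to 1.55 CPM in siNPM1c and 0.646 to 1.22 CPM in siControl and CD3D at 0 counts throughout. No erythroid marker was tested, with HBB at 0 counts, and no epithelial marker was tested, at sums up to 0.676 CPM in siNPM1c and up to 0.362 CPM in siControl. Fibroblast markers summed to 0.903 to 1.68 CPM in siNPM1c and 0.797 to 1.19 CPM in siControl, and the 1 tested was not called. B cell markers summed to 4.29 to 5.20 CPM in siNPM1c and 1.34 to 2.56 CPM in siControl, with PAX5 higher, at a log2 fold change of 2.27 (SE 0.26). Endothelial markers summed to 49.7 to 57.3 CPM in siNPM1c and 42.9 to 43.9 CPM in siControl, nearly all PECAM1, which myeloid cells also express. Both tested endothelial markers rose, PECAM1 at a log2 fold change of 0.29 (SE 0.046) and VWF at 2.01 (SE 0.33), with 1.64 CPM in siNPM1c and 0.432 CPM in siControl for VWF. The part of these differences in the decreases of the repair genes was not tested.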

How the data were processed

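The authors deposited 1 table of counts, whole numbers per Entrez gene without normalization, for 6 RNA-seq libraries of OCI-AML3 cells (3 siNPM1c, 3 siControl). Per the submitters' processing notes, the builds were mm10 and hg38 and the tools STAR 2.7.5a, cutadapt 2.6, DESeq2 1.34.0 and CASAVA 1.8, with no roles given. How reads were counted, on which annotation, with or without strand, and what became of reads with several matches are not given in the sources used here. Columns were assigned by the names in the labels and groups by the sample titles. Symbols were matched for 28256 of 28307 genes through a RefSeq table (GRCh38.p14), which also gave the coordinates and promoters.

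Counts were tested in R 4.3.3 with edgeR 4.0.16: filterByExpr at its defaults (minimum count 10, minimum total 15), TMM, glmQLFit with robust = TRUE and glmQLFTest, two-sided, with Benjamini-Hochberg adjustment over 12938 genes and calls at an adjusted p under 0.05. Fold changes are siNPM1c minus siControl on the log2 scale, and a standard error is the absolute log2 fold change over the square root of F. The common coefficient of variation between replicates that edgeR estimated beyond counting noise was 2.17%. Libraries of one group differed by more than sampling noise (chi-square per degree of freedom 1.46 to 2.36, against 23.9 to 38.5 between groups), so none was counted as a copy. GENCODE 29 gave the GC content (median of a gene's transcripts; 97.1% of tested genes had one) and the length of its merged exons. The method was run on simulated counts with the same spread between replicates for every gene. These held no GC trend and no shift in ribosomal RNA, so that run does not bear on either.

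The 41 genes and the other lists were chosen with earlier results of these data known, and the partner pairs and the GC split after the values were seen. Values in every library are given for the 10 called genes with the largest decreases and without overlap between groups, the called increases, and BRCA1, BRCA2, PALB2, FANCA, FANCD2, FANCI, ATM, ATR, CHEK1, CHEK2, BLM, TP53BP1, RAD51C and MRE11 whatever their p; of each other list up to 3 called genes with the smallest p are named. Some genes that this rule names are not reported here. NBN is given in full, and the neighbouring genes and single markers are named, by choice after their values were seen. Alternatives were scaling by library sizes alone or by size factors of DESeq2, the protein-coding genes alone, every gene with a count, only genes that reached 5 CPM in 3 libraries, the tests of DESeq2 1.42.0 and of limma-voom (limma 3.58.1), robust = FALSE in glmQLFit, a block for the replicate number, an offset for each library's GC trend (lowess, span 0.3), and each library left out in turn.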

Additional observations from a re-analysis of the deposited data

How the results depend on the processing

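Of the 21 called genes of the set, 10 were called in every alternative that tested them (ATM, ATR, BLM, CHEK2, FANCA, FANCI, FANCM, RAD54B, TOPBP1 and UBE2T). Library sizes alone gave 505 genes higher and 9253 lower, 37 lower and 0 higher in the set, and medians of -0.70 for the set and -0.48 for all genes; the sign turned for RAD54L (-0.31), FANCE (-0.31), FANCF (-0.35), SLX4 (-0.0076) and TOP3A (-0.34). Protein-coding genes only gave 4 of the set higher (SLX4, FANCE, TOP3A and ATRIP, which was tested there), and no filter beyond 1 count gave 1. A filter of 5 CPM gave 11 lower of 23 tested and a median of -0.20, fewer genes being tested, beside 27.9% of 7696 genes lower. DESeq2 gave 1754 of all genes lower, 12 of the set lower and 1 higher; the cause was not tested. The GC correction gave 13 lower, 1 higher and a median of -0.12 (2461 lower and 2583 higher of 12557 genes), and turned the sign of MRE11 (0.086), CHEK1 (0.021), BARD1 (0.076), BRCA2 (0.21), FANCL (0.0031) and BRIP1 (0.0093), none of them called.

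Leaving out 1 library gave 13 to 18 of the set lower, 1 to 4 higher and medians of -0.27 to -0.21, with 2196 to 2579 of all genes lower and 2435 to 2675 higher. Among genes not called, the sign turned for RAD51D (-0.16 to 0.0084; above 0 without siNPM1c replicate 1 or siControl replicate 3), FANCF (-0.015 to 0.23; below 0 without siNPM1c replicate 2), FANCG (-0.065 to 0.023; above 0 without siNPM1c replicate 3) and BRCA2 (-0.10 to 0.033; above 0 without siControl replicate 1). Same-numbered libraries did not deviate together (correlations of 0.019, -0.0027 and -0.0041), so the numbers were not taken as pairs; with the replicate number as a block, 19 of the set were lower and 3 higher (TOP3A added), with a median of -0.23. Counts limit the precision: RAD54B, RAD51AP1, RAD51B, RAD51C, FANCL, UBE2T, RBBP8, RMI2 and ATRIP had at most 73 counts in any library.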
